A study of Mus musculus with 16 samples.

Results

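Whole thyroids of mice that had eaten a high-fat diet and drunk sucrose water (HF+SD) for 6 weeks were compared with thyroids of mice kept on chow (control diet, CD) for the same time. These are 8 of the 16 libraries of the series, 4 per diet, chosen by their diet and week labels alone. All mice were wild-type (WT) male C57Bl/6J mice that were 8 weeks old when the diets began, and each library holds the poly(A) RNA of 1 mouse. Of 21640 genes in the deposited count table, 18249 had enough counts in these 8 libraries to be tested. Chow was fed to mice M22, M43, M45, M48, the HF+SD to mice M5, M18, M34, M35, and values are listed in this order. Levels are given as CPM, counts scaled to a common library size by the trimmed mean of M-values (TMM).

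The thyroid follicle is a sphere of epithelial cells, the thyrocytes, that take iodide from dense capillaries, couple it to thyroglobulin, and release thyroid hormone. Thyroid-stimulating hormone (TSH) acts on them through its receptor and cyclic AMP, and a gland under lasting TSH stimulation grows, divides its cells and becomes more vascular. The gland lies against the trachea and strap muscles and holds parathyroid tissue, calcitonin-making C cells and fat, so a dissected thyroid can carry RNA of any of these.

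Total counts ranged from 30025256 to 42896792 among CD libraries and from 30838479 to 36262830 among HF+SD libraries, and the thyrocyte genes Tg, Pax8, Nkx2-1 and Foxe1 were detected in all of them. Skeletal muscle content differed between CD mice. The muscle score, the mean log2 CPM of Ckm, Acta1, Myh1, Myh4 and Actn3, was lowest in M22, at 5.58, and reached 11.07 in M43, 12.91 in M48 and 13.67 in M45. On the HF+SD it was 8.01 in M5, 6.23 in M18, 6.41 in M34 and 7.10 in M35. Thus 3 CD mice lay above every HF+SD mouse and M22 lay below all of them. The 2 muscle lists together took 0.0917% of the counts in M22, 3.60% to 15.2% in the other CD mice, and 0.116% to 0.415% on the HF+SD. Each comparison was therefore fitted without and with the muscle score as a covariate, and M22 is named beside the results because it is the only CD mouse whose muscle content was as low as that of the HF+SD mice.

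**Figure D1:**
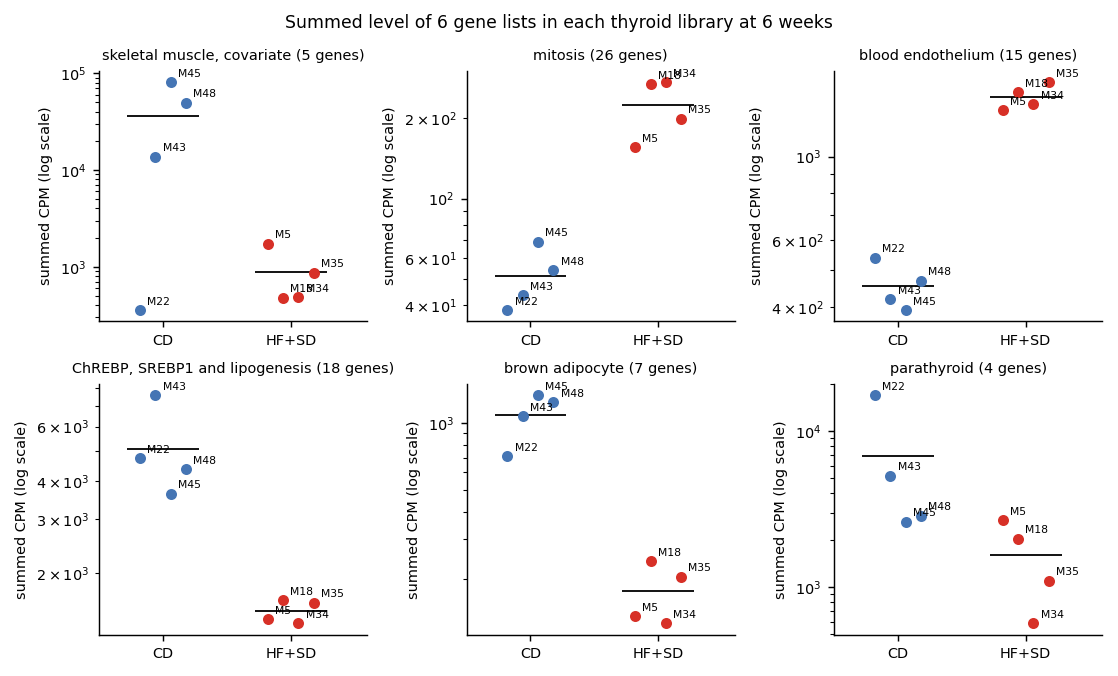
Summed CPM (log scale) of the genes of 6 lists in each mouse, with CD mice in blue, HF+SD mice in red and a horizontal line at the mean of 4 mice. The muscle list spans 357 to 80910 CPM on the CD around the HF+SD values, whereas the mitosis, endothelium, lipogenesis and brown adipocyte sums do not overlap between diets.

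A gene was called when edgeR's quasi-likelihood test gave an adjusted p under 0.05 and its absolute log2 fold change, HF+SD over CD, was above 1. Without the covariate, 1211 genes (6.64% of those tested) were called higher and 1097 (6.01%) lower. With the covariate, 946 (5.18%) were called higher and 514 (2.82%) lower. The counts of called genes given below for single lists stand against these shares. Of the 1211 higher genes, 772 were also called with the covariate, and none of the 1211 had a negative coefficient in that fit. Of the 1097 lower genes, 329 were also called, and 106 had a positive coefficient. In 2527 genes (13.8%) the HF+SD mice all lay above the CD mice, and in 1819 (9.97%) they all lay below. Higher calls were mostly of this kind (1146 of 1211), whereas 631 of 1097 lower calls were. Without M22, 1532 genes were called higher and 1637 lower without the covariate, and without M18 or M34 the lower calls were 448 or 445.

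The fit with the covariate leaned on M22. Across all tested genes, 30.2% had all 4 HF+SD mice above M22 and 31.4% had all 4 below it. Among the genes called with the covariate, this held for 946 of 946 higher and 509 of 514 lower genes. Among the genes called without the covariate, it held for 1172 of 1211 higher and 664 of 1097 lower genes. Genes called higher were selected for HF+SD values above CD values, so their counts cannot show a weight of M22. The fits differed mainly in the lower genes. When M22 was left out, no gene was called with the covariate in edgeR (smallest adjusted p 0.0649), although 2221 passed an unadjusted p of 0.05, and no other tool was run on those 7 mice with the covariate. Without M22 the muscle scores of the diets no longer overlap, so diet and muscle content cannot be told apart in those 7 mice.

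**Figure D2:**
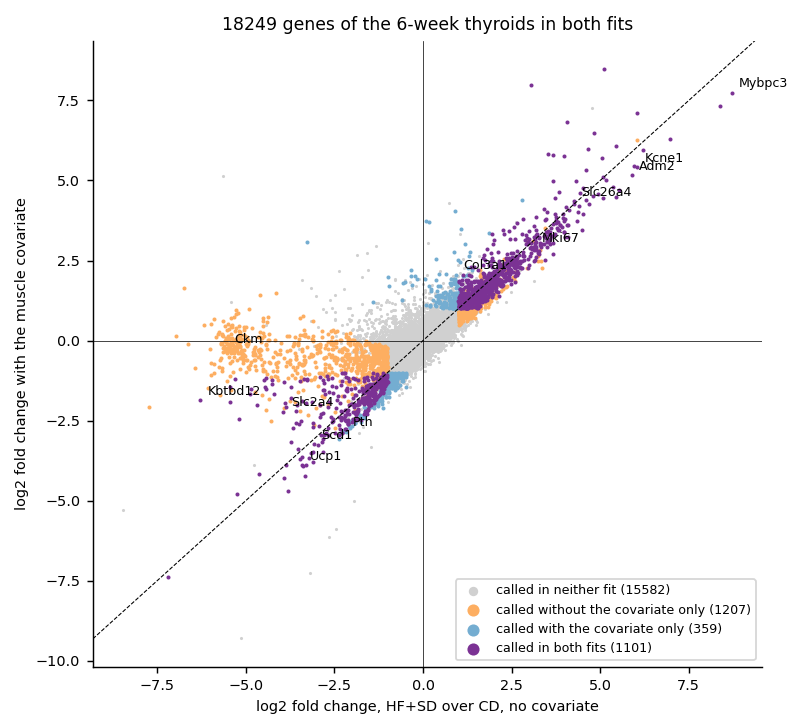
Log2 fold change of each of 18249 genes without (x axis) and with (y axis) the muscle covariate, coloured by the fit that called it. Genes called higher lie near the dashed line of equal values. Of the genes called lower only without the covariate, some, such as Ckm (-0.24), lie near 0 on the y axis. Others, such as Adipoq (-1.14) and Cpt1b (-1.78), stay below it.

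The genes with the largest rise, among those called in both fits, with no overlap between diets and at least 5 CPM on average, came from several families. Kcne1 (ENSMUSG00000039639.8), the accessory subunit of the KCNQ1 potassium channel, was at 0.631, 0.297, 0.227 and 0.256 CPM in the CD mice and at 14.9, 26.2, 23.1 and 29.9 CPM in the HF+SD mice. The lowest HF+SD mouse was thus far above the highest CD mouse, and the difference on the log2 scale was 6.05 (standard error 0.38, adjusted p = 0.000103), or 5.41 (adjusted p = 0.000128) with the covariate. Kcnq1 itself was at 1.96 to 3.87 CPM on the CD and 6.01 to 8.76 after the HF+SD, with a log2 fold change of 1.31 (adjusted p = 0.00949) that was 1.04 with the covariate and no longer passed (adjusted p = 0.0612).

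The genes of 2 coagulation proteases rose together. F10 (ENSMUSG00000031444.17), which encodes factor X, was at 1.03, 0.434, 0.390 and 0.426 CPM in the CD mice and at 15, 27.6, 16.6 and 18.4 in the HF+SD mice (log2 fold change 5.08, adjusted p = 0.000136). F7, which encodes factor VII, was at 1.41, 0.320, 0.325 and 0.313 CPM on the CD and at 7.01, 14.9, 8.84 and 9.38 on the HF+SD (4.08, adjusted p = 0.00135). For both, M22 was the highest CD mouse and still lay below every HF+SD mouse, and with the covariate the log2 fold changes were 4.45 and 3.24.

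Mybpc3, a sarcomere protein best known from heart muscle, had 2, 0, 0 and 1 counts in the CD mice and 263, 522, 280 and 356 in the HF+SD mice. Per TMM-scaled library size the ratio was 484 (exact 95% interval 165 to 2350, covering counting error only). The skeletal muscle genes of the covariate did not move with it: among the CD mice they were highest in M45, where Mybpc3 had no count. Lingo1, a membrane protein of the nervous system, was at 0.0457 to 0.325 CPM on the CD against 7.94 to 19.8 on the HF+SD (log2 fold change 6.21, adjusted p = 0.000167).

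Foxf2, a forkhead transcription factor of mesenchymal cells and pericytes, was at 1.23, 0.662, 0.715 and 0.455 CPM on the CD and at 17.7, 16.9, 20.5 and 23.4 on the HF+SD (log2 fold change 4.67, adjusted p = 0.000103). Adamtsl2, a matrix protein that binds latent TGF-beta binding proteins and fibrillin, was at 2.55, 2.17, 1.82 and 3.24 CPM against 34.6, 78.7, 49.6 and 42.9 (4.39, adjusted p = 0.000103). Bdkrb2, the bradykinin B2 receptor, was at 1.17 to 2.84 CPM against 27.7 to 51.3 (4.13, adjusted p = 0.000152). Card9, an adaptor of innate immune receptors, was at 4.74 to 11.2 CPM against 72.1 to 159, and Fbp1, the gluconeogenic fructose bisphosphatase, at 9.65 to 25.5 against 195 to 310. In these 5 genes the HF+SD mice were apart from all 4 CD mice, and with the covariate the log2 fold changes were 3.55 to 4.26. Adm2, a peptide of the adrenomedullin family, went from 2.49 to 9.90 CPM on the CD to 124 to 427 on the HF+SD (5.89, adjusted p = 0.000331). C2cd4b differed from the others in its spread, with 0.708 to 0.796 CPM on the CD but 16.5, 1.22, 32.8 and 8.33 in M5, M18, M34 and M35 (4.26, adjusted p = 0.00783; with the covariate adjusted p = 0.0447).

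The 12 genes with the largest fall by the same rule followed the muscle content of the CD mice. They were Kbtbd12, Car14, Adprhl1, Tcea3, Aqp4, Sox6, Lrrc39, Rxrg, Myom3, Slc2a4, Dusp10 and Prkcq. Kbtbd12, a kelch repeat gene, was at 0.402 CPM in M22 but 7.06, 42.9 and 22.7 in M43, M45 and M48, against 0.0872 to 0.396 on the HF+SD. In all 12 genes M22 was the lowest and M45 the highest CD mouse, and the log2 fold changes of -6.29 to -3.91 became -2.44 to -1.24 with the covariate. Slc2a4, which encodes the insulin-responsive glucose transporter GLUT4, kept the lowest adjusted p with the covariate (0.000765), at 22.4, 55, 180 and 122 CPM on the CD and 7.28, 6.27, 4.74 and 6.39 on the HF+SD. M22 was thus well above every HF+SD mouse for this gene, whereas for Kbtbd12 it was close to the highest of them. The part of fat content in the Slc2a4 values was not tested.

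**Figure D3:**
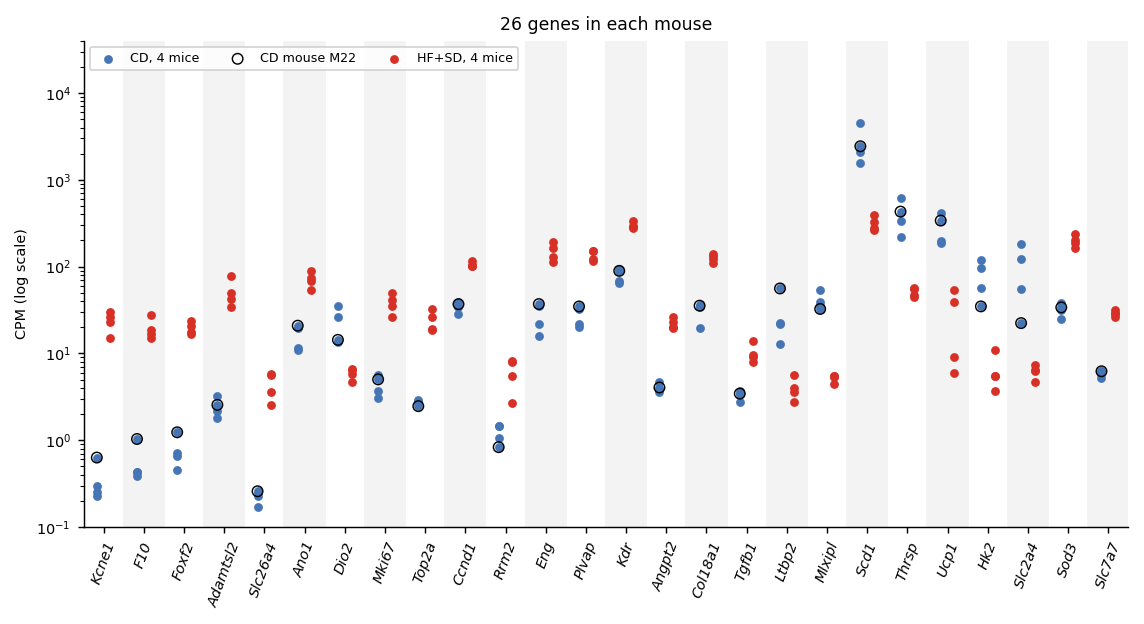
CPM (log scale) of 26 genes in each mouse, with CD mice in blue, HF+SD mice in red and the CD mouse M22, which had little muscle, ringed in black. In all 26 genes the diets do not overlap, so M22 lies on the CD side of every HF+SD mouse. For Ltbp2, M22 lies above the other CD mice, on the side away from the HF+SD mice.

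The mitosis list holds 26 genes that cells switch on between late S phase and cell division (mitotic cyclins and kinases, kinetochore and spindle proteins), and all were tested. The median log2 fold change was 2.57, or 2.43 with the covariate, against -0.01 and 0.00 over all tested genes. Of the 26, 23 were called higher without the covariate and 22 with it, 21 of them in both fits, and none was called lower. Their summed level was 38.5, 43.8, 69.2 and 54.2 CPM in M22, M43, M45 and M48, and 156, 267, 272 and 198 CPM in M5, M18, M34 and M35. M22, the CD mouse with the least muscle, had the lowest sum, and in all 26 genes every HF+SD mouse was above M22.

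Mki67 (ENSMUSG00000031004.9), the proliferation antigen Ki-67, was at 5.02, 3.68, 3.05 and 5.6 CPM on the CD and at 26.3, 49.3, 41.6 and 35.4 on the HF+SD (log2 fold change 3.13, standard error 0.26, adjusted p = 0.000194). Top2a, the topoisomerase that untangles sister chromosomes, was at 2.47, 2.76, 2.73 and 2.87 CPM against 19.2, 26.6, 32.5 and 18.4 (3.16, adjusted p = 0.000103), and its value with the covariate was also 3.16. M5 was the lowest or next to lowest HF+SD mouse in both. Bub1, a kinase of the spindle checkpoint, had the largest rise of the list (3.59, adjusted p = 0.000276) but from 0.137 to 0.287 CPM on the CD to 1.69 to 3.34 on the HF+SD. Ccnb1, the cyclin that drives entry into mitosis, went from 0.260 to 0.708 CPM to 3.98 to 8.00, and Cenpf, a kinetochore protein, from 0.910 to 1.52 to 7.12 to 16.1.

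The 3 mitosis genes not called without the covariate were Aurka, Tpx2 and Ube2c. Ube2c, the ubiquitin-conjugating enzyme of the anaphase-promoting complex, was at 0.890, 3.20, 20.4 and 10.6 CPM in M22, M43, M45 and M48 and at 3.03 to 5.99 on the HF+SD. Its order among the CD mice was that of the muscle score, as it was for Aurka and Tpx2, and its log2 fold change of -0.80 (adjusted p = 0.473) was 1.94 with the covariate (adjusted p = 0.0889). 

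Promoters of the mitosis genes are shown because the genes moved together. The list was made of late cell cycle genes, so elements known from that class come with the choice of the list. Their sharing says nothing about diet, and whether they took part in the diet difference was not tested. Transcription in late cell cycle is known to depend on the CHR element (TTTGAA or TTCGAA) and on CCAAT boxes. Both were searched on both strands in RefSeq promoter windows of build GRCm38.p6, from 250 bases before to 50 bases after each start. Windows were found for 22 of the 26 genes, 24 windows in all. A CHR was in 83.3% of these windows and in 19.2% of all 32851 windows, a CCAAT box in 79.2% and 37.4%, and both in 70.8% and 7.52%. In the windows of tested genes the shares were 14.2% for a CHR, 37.0% for a CCAAT box and 5.68% for both. Of 21 DNA replication genes with windows, 5 had both elements, against 15 of the 22 mitosis genes. The CCAAT box by itself was not particular to the mitosis list. It was in 17 of the 22 mitosis genes, 14 of the 21 replication genes and 11 of 14 genes of the lipogenesis list. Neither word contains the other, and TTCGAA reads the same on both strands. Among genes with a single window, 5 had both elements wholly within the 120 bases before the start, and those stretches are printed 5′ to 3′ on the strand of the gene, with CHR and CCAAT letters (or their reverse complements) in capitals. They lie at chr11:99024190-99024309 (minus strand), chr10:69352913-69353032 (minus strand), chr4:118437344-118437463 (minus strand), chr19:37376262-37376381 (plus strand) and chr2:164769809-164769928 (plus strand).
Top2a: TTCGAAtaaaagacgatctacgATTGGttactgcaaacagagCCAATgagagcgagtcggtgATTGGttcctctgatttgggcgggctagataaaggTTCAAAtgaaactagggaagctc
Cdk1: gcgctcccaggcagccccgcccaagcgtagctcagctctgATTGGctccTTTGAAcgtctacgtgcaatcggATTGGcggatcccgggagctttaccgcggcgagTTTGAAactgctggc
Cdc20: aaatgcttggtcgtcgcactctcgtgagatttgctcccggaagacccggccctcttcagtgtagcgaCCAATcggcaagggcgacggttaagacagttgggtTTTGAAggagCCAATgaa
Kif11: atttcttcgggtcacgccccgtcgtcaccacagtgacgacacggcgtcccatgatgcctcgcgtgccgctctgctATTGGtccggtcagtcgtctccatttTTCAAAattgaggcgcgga
Ube2c: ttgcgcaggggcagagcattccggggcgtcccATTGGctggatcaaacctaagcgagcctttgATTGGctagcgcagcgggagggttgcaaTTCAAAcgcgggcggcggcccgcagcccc

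These 5 genes were picked for the elements after their values had been seen. Cdk1, the kinase partner of Ccnb1, was at 1.12, 1.26, 0.585 and 1.48 CPM on the CD and at 6.57, 11.3, 12.5 and 8.70 on the HF+SD (log2 fold change 3.13, adjusted p = 0.000398). Kif11, a spindle motor, rose by 2.35 (adjusted p = 0.000306), and Cdc20, an activator of the anaphase-promoting complex, by 1.93 (adjusted p = 0.000938). The stretch of Ube2c holds the same elements, and its values are those given above.

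DNA replication genes did not move as mitosis genes did. Of 25 tested genes, 2 were called higher without the covariate and 1 with it. The shares over all tested genes were 6.64% and 5.18%, and no gene of the list was called lower. In 6 of the 25 every HF+SD mouse lay above every CD mouse, against 13.8% of all tested genes. The median was 0.15 or 0.10, turning to -0.21 under a scaling to 9 thyrocyte genes. That scaling moved the median of all tested genes from -0.01 to -0.34, so every list median was lower under it. Rrm2, the regulated subunit of ribonucleotide reductase, was called in both fits, at 0.832 to 1.46 CPM on the CD against 2.69 to 8.14 on the HF+SD (log2 fold change 2.33, adjusted p = 0.00312). Gins2, part of the replicative helicase, rose by 1.49 (adjusted p = 0.00834) and was 0.97 with the covariate. Mcm2, another helicase subunit, overlapped between diets at 8.79 to 15.6 and 13.8 to 19.8 CPM (0.41, adjusted p = 0.172). Mcm3, also of the helicase, did not overlap, at 2.83 to 4.92 CPM against 5.33 to 7.98. It was under the fold minimum (0.84, adjusted p = 0.0263). Whether the 2 lists differ was not tested.

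Of 22 cyclins and inhibitors of the G1 phase, 2 were called higher and 1 lower, and with the covariate 2 higher and none lower. The shares over all tested genes were 6.64% and 6.01%, or 5.18% and 2.82% with the covariate. Ccnd1, cyclin D1, was at 36.9, 33.9, 28.6 and 39.0 CPM on the CD and at 100, 118, 103 and 104 on the HF+SD (log2 fold change 1.62, standard error 0.13, adjusted p = 0.000178), with little spread in either diet. Cdkn1c, the inhibitor p57, was called lower (-1.94, adjusted p = 0.0226), but M45 and M48 stood at 21.7 and 16.9 CPM, M22 at 4.16 and the HF+SD mice at 2.33 to 3.98, and with the covariate the value was -0.61 (adjusted p = 0.283). The call was lost in 6 of the 8 fits that each left out a mouse, those without M45, M48 or any single HF+SD mouse (-2.06 to -1.55).

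The machinery of hormone synthesis was called higher in 8 of its 14 tested genes without the covariate and in 4 with it, with a median of 1.18 and 0.82. Duoxa1, a maturation factor of the dual oxidases, was the only member called lower (-1.17), and it was -1.12 and not called with the covariate. Slc26a4 (ENSMUSG00000020651.9), which encodes the anion exchanger pendrin, had the largest rise of the list, but from very low levels, at 0.258, 0.251, 0.227 and 0.171 CPM on the CD and 5.85, 2.57, 3.55 and 5.70 on the HF+SD (4.26, adjusted p = 0.000172). Ano1, a calcium-activated chloride channel of the apical membrane, was at 20.9, 19.6, 11.5 and 10.9 CPM against 53.5, 73.8, 88.6 and 68.4 (2.17, adjusted p = 0.000804). For each the diets did not overlap. Both were called in both fits, as was the iodide symporter gene Slc5a5, at 66.4 to 320 CPM against 512 to 1051.

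Lineage factors of the thyrocyte had a median of 0.10, which was -0.16 with the covariate, -0.25 with thyrocyte scaling, -0.06 without M43 and -0.03 without M35. Pax8 was at 631, 391, 364 and 358 CPM on the CD and at 376 to 485 on the HF+SD, with M22 above all others, a log2 fold change of 0.01 (adjusted p = 0.974) whose sign turned to -0.35 with the covariate and to -0.28 with thyrocyte scaling. Nkx2-1 was also highest in M22, with 407 CPM in M22, 166 to 207 in the other CD mice and 191 to 252 on the HF+SD. Glis3, a zinc finger factor needed for the transcription of hormone synthesis genes, was the only one of 5 factors called, at 11.4 to 32.1 CPM against 49.7 to 89.2 (1.54, adjusted p = 0.0129), and it was not called with the covariate (1.17, adjusted p = 0.0966).

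Within TSH signalling, the receptor and its G protein moved in opposite directions. Tshr was higher in every HF+SD mouse, at 37.2 to 88.3 CPM on the CD against 169 to 234 on the HF+SD. Gnas, which encodes the stimulatory alpha subunit that couples the receptor to adenylyl cyclase, was at 1272, 700, 1438 and 1260 CPM on the CD and at 505, 481, 412 and 641 on the HF+SD (log2 fold change -1.20, adjusted p = 0.0116; with the covariate -1.15, adjusted p = 0.0244). The Gnas locus makes several overlapping transcripts, which counts per gene do not separate. Of the 18 genes of the list 2 were called higher and 1 lower, and with the covariate 2 higher and 2 lower, Gnas and the protein kinase A subunit gene Prkar2b, at 38.9 to 57.5 CPM against 21.6 to 37.2. Among all tested genes 6.64% were called higher and 6.01% lower, or 5.18% and 2.82% with the covariate. The deiodinases also split. Dio1 was higher in every HF+SD mouse (275 to 479 against 1252 to 1533 CPM), whereas Dio2, which converts T4 to T3 inside cells, was at 14.3, 35.5, 13.5 and 26.6 CPM on the CD and at 4.75, 6.49, 5.85 and 6.66 on the HF+SD (-1.92, adjusted p = 0.00411; with the covariate -1.72, adjusted p = 0.0212).

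Blood vessel genes rose almost as a whole list. Of 15 endothelial genes, 14 were called higher without the covariate and 12 with it, none lower, with a median of 1.52. The summed level was 541, 420, 393 and 470 CPM on the CD and 1329, 1483, 1378 and 1576 on the HF+SD, and M22 was the highest CD mouse. Pecam1, the junction protein CD31, was at 93.1, 104, 85.0 and 79.0 CPM against 306, 325, 314 and 282 (log2 fold change 1.77, standard error 0.14, adjusted p = 0.000160). Eng, the TGF-beta co-receptor endoglin, was at 37.0, 15.9, 22 and 35.0 CPM against 112, 164, 129 and 192 (2.44, adjusted p = 0.000919), and Plvap, the diaphragm protein of fenestrated capillaries, at 34.8, 21.9, 19.98 and 32.7 against 117 to 152 (2.32, adjusted p = 0.000259). The tight junction gene Cldn5 was the member not called in either fit (0.27 and 1.03). In whole tissue, more vessel cells and more RNA per vessel cell cannot be told apart, and the same holds for every cell type named here.

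The signals that act on vessels were called higher in 10 of 20 genes without the covariate and in 9 with it, none lower. Among ligands, Angpt2, which loosens vessels for sprouting, was at 4.05, 3.90, 4.65 and 3.55 CPM on the CD and at 23, 19.4, 26.1 and 20.2 on the HF+SD (log2 fold change 2.46, adjusted p = 0.000103; 2.48 with the covariate). Vegfa, the main growth factor of blood vessels, was at 1569, 962, 727 and 863 CPM against 1952, 2141, 2021 and 2157. Its difference of 1.01 (adjusted p = 0.0211) was 0.58 with the covariate (adjusted p = 0.0226) and so was under the fold minimum. The call was also lost without M43, M45, M48, M18, M34 or M35 (0.86 to 1.02), and with thyrocyte scaling (0.73). Apln, the ligand of the apelin receptor, was at 1.14 to 1.76 CPM against 2.82 to 9.03 (1.92, adjusted p = 0.00525).

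The receptors moved with them. Kdr, the main VEGF receptor, was at 89.4, 68.6, 64.0 and 93.1 CPM against 276, 288, 290 and 338 (log2 fold change 1.92, adjusted p = 0.000216), and Tie1 rose by 1.63 (adjusted p = 0.000719). Vegfb, whose receptor is Flt1, overlapped between diets at 20.3 to 42.1 and 15.7 to 26.9 CPM. Of 6 lymphatic endothelial genes none was called in either fit. Prox1, the lymphatic master regulator, was lower in every HF+SD mouse (6.54 to 11.4 against 4.56 to 5.29 CPM) with a log2 fold change of -0.71 (adjusted p = 0.0391) that is under the fold minimum.

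Mural cell genes, which mark the pericytes and smooth muscle around vessels, were called higher in 6 of 13 without the covariate and in 5 with it. Notch3, a receptor of mural cells, was at 13.1, 7.92, 8.25 and 9.35 CPM on the CD and at 31.8, 37.3, 29.1 and 35.0 on the HF+SD (log2 fold change 1.78, adjusted p = 0.000424). Higd1b, a pericyte marker, was at 3.73 to 4.12 CPM against 10.8 to 13.7 (1.64, adjusted p = 0.000222), and Rgs5, another, at 228 to 367 against 730 to 821 (1.26, adjusted p = 0.00207). For none of the 3 did the diets overlap, and Rgs5 was not called with thyrocyte scaling (0.89).

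**Figure D4:**
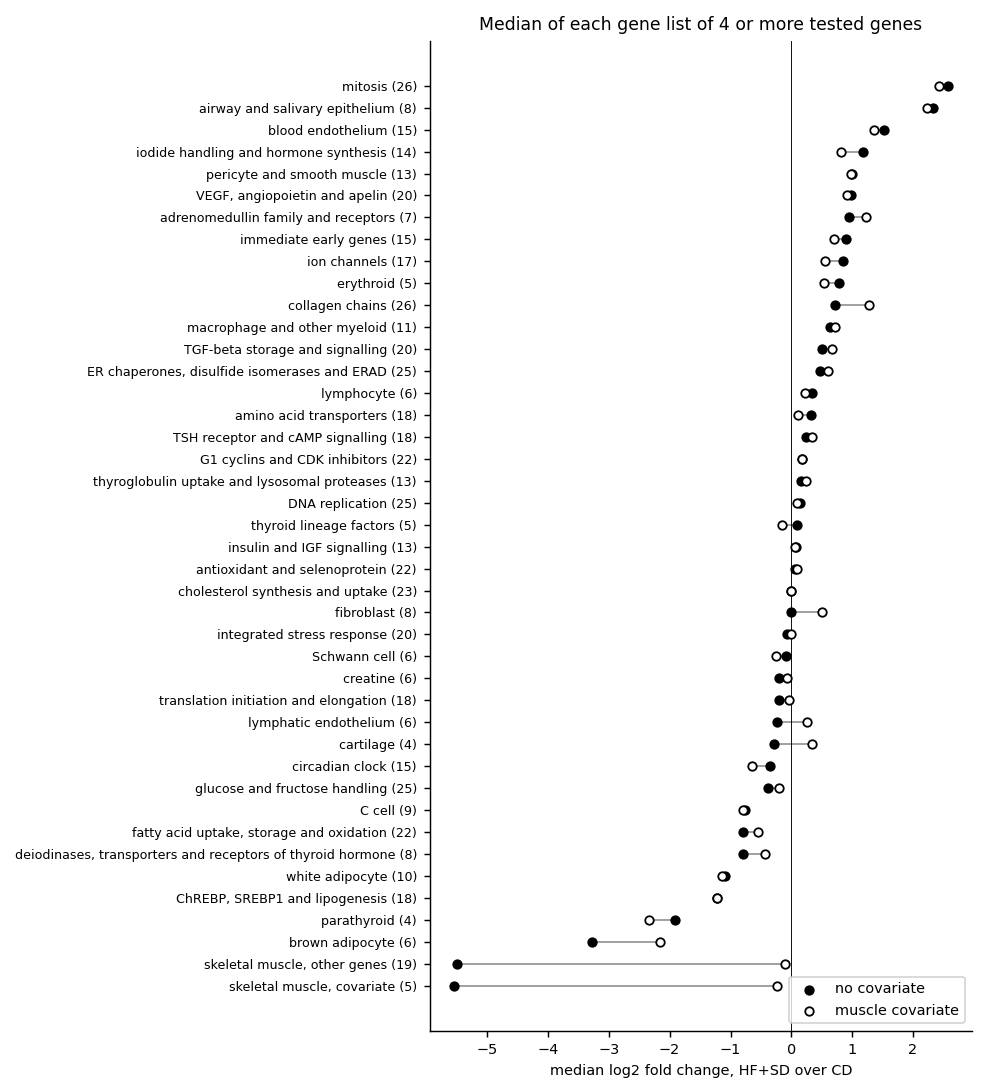
Median log2 fold change (x axis) of each of 42 gene lists with at least 4 tested genes, without (filled) and with (open) the muscle covariate; the number of tested genes stands in parentheses. Mitosis lies at 2.57 and 2.43, and the muscle lists move from about -5.5 to near 0.

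Collagen chains were called more often with the covariate than without it. Of 26 chains, 6 were called higher and 2 lower without it, and 15 higher and 2 lower with it, with medians of 0.71 and 1.27. The 6 were Col13a1, Col18a1, Col4a1, Col4a2, Col5a2 and Col6a2, and they were called in both fits. Col18a1, a basement membrane chain, was at 35.5, 19.9, 34.2 and 36.1 CPM on the CD and at 111, 138, 123 and 134 on the HF+SD (log2 fold change 2.01, adjusted p = 0.000360). Col4a1, the main chain of vascular basement membranes, was at 100, 73.7, 108 and 136 CPM against 312, 277, 266 and 362 (1.54, adjusted p = 0.00134), and Col13a1, a transmembrane chain, at 3.87 to 8.93 against 26.3 to 31 (2.28, adjusted p = 0.000495).

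The fibrillar chains made by fibroblasts behaved differently among the CD mice. Col3a1 was at 71.3, 122, 285 and 264 CPM in M22, M43, M45 and M48 and at 382, 273, 329 and 417 on the HF+SD. M45, which had the most muscle, lay above the lowest HF+SD mouse and M22 was far below them all, and the log2 fold change of 0.92 (adjusted p = 0.131) was 2.06 with the covariate (adjusted p = 0.00141). Col1a1, also lowest in M22 but highest on the CD in M48, was at 19.8, 27.9, 49.1 and 71.0 CPM against 49.5 to 80.6, and its value went from 0.62 to 1.51. The fibroblast markers Pdgfra (-0.32 and 0.21) and Dcn (-0.82 and -0.37) were not called in either fit. The part of muscle-associated connective tissue in these CD levels was not tested.

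**Figure D5:**
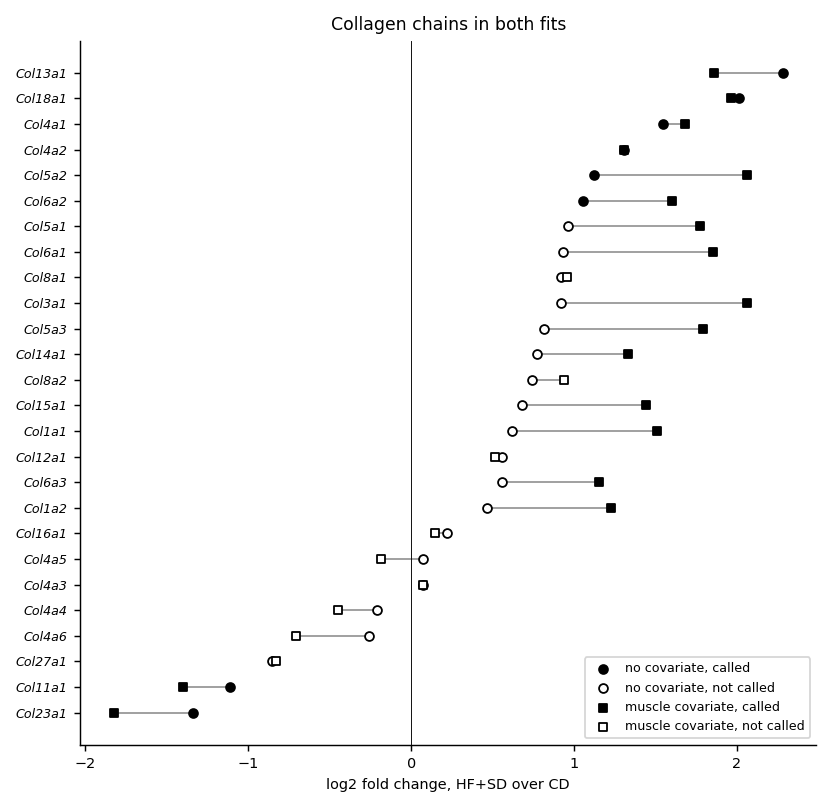
Log2 fold change (x axis) of 26 collagen chains without (circles) and with (squares) the muscle covariate, filled where called. The fibrillar chains such as Col3a1 lie further right with the covariate, whereas Col18a1, Col4a1 and Col4a2 keep about the same value.

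Genes that store and carry TGF-beta signals were called higher in 6 of 20 and lower in 1 of 20 in either fit. Tgfb1, the ligand itself, was at 3.44, 2.79, 3.44 and 3.67 CPM on the CD and at 14.1, 9.16, 8.03 and 9.62 on the HF+SD (log2 fold change 1.62, adjusted p = 0.00129). Inhbb, a subunit of the related activin B, was at 1.64 to 3.72 CPM against 9.06 to 12.2 (1.88, adjusted p = 0.00146). Ltbp2, a microfibril protein related to the latent TGF-beta binding proteins, went the other way, at 56.0, 22.3, 13 and 22.1 CPM against 3.96, 5.67, 2.76 and 3.63 (-2.82, adjusted p = 0.00319; with the covariate -3.48, adjusted p = 0.000314).

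Lipogenic genes fell. Of 18 genes under ChREBP and SREBP1, the factors that switch on fatty acid synthesis from carbohydrate, 11 were called lower without the covariate and 9 with it, all 9 in both fits, and none higher, and the median was -1.23 in each. Mlxipl, which encodes ChREBP, was at 32.5, 35.5, 53.1 and 38.6 CPM on the CD and at 5.51, 5.42, 4.45 and 5.29 on the HF+SD. Scd1, the stearoyl-CoA desaturase, was at 2434, 4473, 1579 and 2067 CPM against 276, 328, 262 and 390 (log2 fold change -3.07, adjusted p = 0.000592). Thrsp, a lipogenic gene of liver and fat named for its response to thyroid hormone, was at 430, 618, 220 and 333 CPM against 47.5, 57, 45 and 55.4 (-2.97, adjusted p = 0.000391). M22, with little muscle, was among the middle CD mice for Scd1 and Thrsp. Fasn, Acss2, Acly, Acacb, Pnpla3 and Dgat2 were the other members called in both fits. Srebf1 itself was not called, at 60.2 to 138 CPM against 68.9 to 94.9 (-0.07, adjusted p = 0.873), and neither was Scd2. Fads1 and Fads2, which desaturate polyunsaturated fatty acids, were higher in every HF+SD mouse but under the fold minimum (0.95, adjusted p = 0.00838, and 0.69, adjusted p = 0.0114).

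Fat cell markers fell over the same mice. All 10 white adipocyte genes had negative log2 fold changes, against 9277 of 18249 tested genes. Of the 10, 8 were called lower without the covariate and 4 with it. Their summed level was 1818, 2111, 1323 and 2364 CPM on the CD and 609, 838, 624 and 1043 on the HF+SD. Fabp4, the fatty acid binding protein of fat cells and some endothelium, was at 1055, 1242, 703 and 1112 CPM against 278, 418, 290 and 518 (log2 fold change -1.45, adjusted p = 0.00622). Adipoq, adiponectin, was at 96.5 to 188 CPM against 43.6 to 88.3 (-1.26, adjusted p = 0.0149; with the covariate adjusted p = 0.0591) and was not called without M18 (-1.21) or M34 (-1.14). Fasn, Scd1 and Thrsp are also abundant in fat, and the part of fat content in the fall of the lipogenic genes was not tested.

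Brown fat markers fell further. Ucp1, the uncoupling protein that defines brown fat, was at 339, 416, 195 and 187 CPM on the CD and at 8.99, 54.1, 5.88 and 39.5 on the HF+SD (log2 fold change -3.39, adjusted p = 0.0111; with the covariate -3.91, adjusted p = 0.0113). Cidea, a lipid droplet protein, was at 73.6 to 162 CPM against 5.41, 20.9, 5.58 and 19.9 (-3.15, adjusted p = 0.00357). For both, M18 and M35 held more than M5 and M34. Of 6 tested genes 5 were called lower without the covariate and 4 with it.

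In cholesterol synthesis, which uses other enzymes, 1 of 23 genes was called higher and 2 lower without the covariate, and 1 each with it. Over all tested genes the shares were 6.64% and 6.01%, or 5.18% and 2.82% with the covariate. Pmvk, phosphomevalonate kinase, was at 13.7 to 23.3 CPM against 4.89 to 6.38 (-1.62, adjusted p = 0.00101), the diets lying clearly apart. Of 22 genes of fatty acid uptake, storage and oxidation, 3 were called higher and 9 lower, and 2 and 3 with the covariate. Lpl, lipoprotein lipase, stayed lower in both fits, at 340, 541, 1130 and 1128 CPM against 141, 113, 132 and 185 (-2.46 and -1.46).

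Of 25 genes of glucose and fructose handling, 1 was called higher and 9 lower, and none higher and 4 lower with the covariate. The 4 were Slc2a4, Hk2, Slc2a3 and Pfkfb1. Hk2, the hexokinase of insulin-responsive tissues, was at 34.8, 56.1, 120 and 95.5 CPM on the CD and at 10.9, 5.55, 3.66 and 5.56 on the HF+SD (log2 fold change -3.57, adjusted p = 0.00120; with the covariate -2.59, adjusted p = 0.00101), M22 being the lowest CD mouse and above every HF+SD mouse. Slc2a3, which encodes GLUT3, was at 5.77 to 17.2 CPM against 2.56 to 3.22. Slc2a1, which encodes the widespread transporter GLUT1, overlapped between diets at 19.4 to 41.3 and 29.6 to 36.3 CPM. Abundant glycolytic genes such as Ldha and Pkm were called lower without the covariate only. Every HF+SD mouse was also below M22 in all 10 white adipocyte genes and in 5 of 6 brown adipocyte genes, against 31.4% of all tested genes. The part of fat content in the lower values of Slc2a4, Hk2, Slc2a3, Pfkfb1 and Lpl was not tested.

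Among membrane proteins, 7 of 17 ion channel genes were called higher and 1 lower, and 4 and none with the covariate. Piezo2, a mechanically gated channel, was at 6.31, 5.92, 3.41 and 5.32 CPM on the CD and at 23.3, 23.7, 27 and 28.7 on the HF+SD (log2 fold change 2.29, adjusted p = 0.000228). Of 18 amino acid transporters, 5 were called higher and 2 lower, and 3 and 1 with the covariate. Slc7a7, the light chain of a basolateral exchanger of cationic amino acids, was at 6.23, 5.80, 5.23 and 6.31 CPM against 29.2, 26.1, 28.1 and 31.8 (2.29, standard error 0.13, adjusted p = 0.000103), and Slc43a2, a carrier of large neutral amino acids, at 115 to 192 against 384 to 555 (1.67, adjusted p = 0.000875). Both had nearly the same value with the covariate, 2.24 and 1.72.

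Of 25 chaperones, disulfide isomerases and ERAD genes of the endoplasmic reticulum, 21 had positive values without the covariate and 24 with it. Over all 18249 tested genes, 8972 and 9046 had. The medians of the list were 0.47 and 0.61, and 1 gene was called higher without the covariate and none with it. Without M5 the median was 0.17. Hspa5, the chaperone BiP, was at 1285, 2721, 1271 and 1712 CPM on the CD and at 6089, 1889, 2439 and 2304 on the HF+SD. M5 alone stood apart, and the other HF+SD mice overlapped with the CD mice (log2 fold change 0.86, adjusted p = 0.167). In the integrated stress response 1 of 20 genes was called higher and 2 lower, against 6.64% and 6.01% of all tested genes. With the covariate 1 was called higher and none lower. The gene called higher in both fits was Ddit4, an inhibitor of mTOR complex 1, at 14.2, 20.8, 13.6 and 16.2 CPM against 58.6, 47.6, 37.8 and 55.3 (1.62, adjusted p = 0.000720), while Atf4 and Ddit3, its best known factors, were not called.

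Of 22 antioxidant and selenoprotein genes, 2 were called higher in both fits, and 2, Selenow and Nqo1, were called lower without the covariate only. Without the covariate 6.64% of all tested genes were called higher and 6.01% lower. Sod3, the extracellular superoxide dismutase, was at 33.9, 25.1, 31.7 and 38.0 CPM on the CD and at 164, 241, 186 and 202 on the HF+SD (log2 fold change 2.62, standard error 0.18, adjusted p = 0.000103). Hmox1, heme oxygenase, was at 12.5 to 14.5 CPM against 25.7 to 41.9 (1.25, adjusted p = 0.00142), and was not called with thyrocyte scaling (0.92). In insulin and IGF signalling, Igfbp7, a secreted binding protein of vessels and stroma, was the only gene of 13 called in both fits, at 89.3 to 135 CPM against 299 to 390 (1.52, adjusted p = 0.000865).

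Markers of other cells in and around the gland also differed between mice. Parathyroid genes were highest in M22, where Pth, parathyroid hormone, stood at 14600 CPM, against 4290, 2122 and 2587 in the other CD mice and 1925, 1862, 433 and 978 on the HF+SD. None of the 4 parathyroid genes was called without the covariate, and 3 were called lower with it. The C cell genes summed to 5837 to 10560 CPM on the CD against 4083 to 4400 on the HF+SD, most of it from Calca. Of the 9 tested C cell genes, 7 had negative and 2 positive values, and 1 was called lower without the covariate and 2 with it. Among them Calca, which encodes calcitonin and CGRP, was at 7712, 9227, 5404 and 5434 CPM against 3727, 3802, 3668 and 3705 (log2 fold change -0.90, adjusted p = 0.0236; with the covariate -1.11, adjusted p = 0.00669), and Snap25, a protein of secretory vesicle fusion, was called lower in both fits (-1.16, adjusted p = 0.00487), though not without M43 (-0.99). Ret, also of this list, had a positive value and overlapped between diets, at 31.5 to 51.1 and 41.5 to 65.8 CPM (0.55, adjusted p = 0.0796). 

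All 11 myeloid genes had positive values in both fits, against 8972 of 18249 tested genes without the covariate and 9046 with it. Of the 11, 1 was called higher without the covariate and 2 with it, against 6.64% and 5.18% of all tested genes. Mrc1, the mannose receptor of resident macrophages, was at 13.5, 25.5, 22.4 and 19.4 CPM on the CD and at 55, 41.6, 37.4 and 40.8 on the HF+SD (log2 fold change 1.11, adjusted p = 0.00704; not called without M22, at 0.97, without M5, at 0.99, or with thyrocyte scaling, at 0.74), and Csf1r, the receptor of macrophage growth factor, at 19.9 to 26.6 against 38.9 to 46.7 (0.90, adjusted p = 0.00179). No lymphocyte gene was called. The secretory gland genes Dcpp1, Dcpp2 and Dcpp3 were at 0.0287 to 2.08 CPM in 3 CD mice; they are close copies, so reads may be split among them. Dcpp1 was at 0.516, 45.8, 0.780 and 0.426 CPM on the CD and at 408, 838, 1139 and 736 on the HF+SD (6.03, adjusted p = 0.0284; with the covariate adjusted p = 0.345), and the call was lost without M45, M48, M18, M34 or M35 (5.63 to 6.06), whereas without M43 the value was 10.38. The airway marker Foxj1 was at 0.388 to 1.12 CPM against 1.40 to 3.61 (1.85, adjusted p = 0.0177) and was not called with the covariate, nor without M18 (1.69) or M34 (1.72). Of 8 tested airway and salivary genes, 3 were called higher and 1 lower without the covariate, and none higher and 1 lower with it. The gene called lower in both fits was Amy1 (-2.66, adjusted p = 0.00224; with the covariate -1.60, adjusted p = 0.00262). It was at 24.9 to 103.9 CPM on the CD, in the order of the muscle score, and at 8.2 to 13.03 on the HF+SD. Whether airway or salivary tissue entered these samples was not tested.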

How the data were processed

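RNA-seq of whole mouse thyroid was measured in 16 libraries, of which the 8 of week 6 entered the fits. The authors deposited raw counts per gene; the submitters' processing notes name Trim Galore 0.6.7, STAR, DESeq2 1.36.0, R 4.1.0 and build mm39. The study's text gives a smaller CD group at week 6 than the 4 libraries labelled so, and all were used. Ensembl IDs were matched to symbols through GENCODE M21 (20841 of 21640), a GRCm38 annotation, so gene coordinates are not given. Depth per library is in the report, and p-values set each diet difference against the spread between these mice as the fit estimated it.

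Counts were filtered by group with filterByExpr, scaled by TMM and fitted with edgeR 4.0.16 (quasi-likelihood, R 4.3.3), without and with the muscle score, with Benjamini-Hochberg adjustment over all 18249 genes, an adjusted p threshold of 0.05 and a log2 fold minimum of 1. Fits were tested on simulated counts. Alternatives were DESeq2 1.42.0 (Wald test and size factors), upper-quartile scaling, TMM without muscle genes, scaling to 9 thyrocyte genes, a filter of at least 10 counts in every library or of 1 count, no fold minimum, a score of other muscle genes, and leaving out each mouse. Figures were drawn with matplotlib 3.10.9.

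Genes named were the 12 largest changes in each direction called in both fits, not overlapping between diets and of at least 5 CPM, the first 2 genes of each list, and up to 4 called members of each list. Others were named after their values were seen, and some genes of the rule are not reported here. The members and lists were chosen with earlier results of these data known.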

Additional observations from a re-analysis of the deposited data

Results flagged for a closer look

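In 13 of 246 groups of 4 mice (123 genes in each diet) the highest or lowest mouse stood apart from the other 3 by Dixon's criterion, which chance alone meets in about 1 of 20 groups. M22 was that mouse for 5 genes. It held 1.03 CPM of F10 (others 0.390 to 0.434), 1.41 of F7 (0.313 to 0.325), 631 of Pax8 (358 to 391), 407 of Nkx2-1 (166 to 207) and 138 of Srebf1 (60.2 to 72.0), in each case more than the other CD mice. M45 was lowest on the CD for Prkar2b, at 38.9 CPM (others 55.4 to 57.5), and for Ccnb1, at 0.260 (0.654 to 0.708). M43 was lowest for Col18a1, at 19.9 CPM (34.2 to 36.1), and highest for Dcpp1, at 45.8 (0.426 to 0.780).

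On the HF+SD, M5 was lowest for Card9, at 72.1 CPM (others 144 to 159), and highest for Hspa5, at 6090 (1890 to 2440), and for the parathyroid factor Gcm2, at 18.8 (3.20 to 5.17). M35 was highest for Egfl7, an endothelial protein, at 147 CPM (106 to 110). No cause was tested for these mice.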

How the results depend on the processing

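No paired analysis was possible because the mouse numbers are not shared between groups. With a mouse left out at a time, calls numbered 1468 to 3169 (1023 to 1532 higher, 445 to 1637 lower), and 0 to 1487 with the covariate (0 to 981 higher, 0 to 521 lower), the 0 being the edgeR fit without M22, in which 2221 genes passed an unadjusted p of 0.05. Scaling to thyrocyte genes gave 754 higher and 2073 lower calls, so that 26.7% of calls were higher against 52.5%, and 1313 higher and 2952 lower genes without overlap. With no fold minimum 3927 genes passed, 2184 higher and 1743 lower, and 2031 (1262 and 769) with the covariate. The DESeq2 Wald test called 2677. Single genes were checked for 123 of those named, not for all. Pdgfra, for example, was not entered, and it went from -0.32 to 0.21 with the covariate. Of 123 genes, the direction turned for Pax8 (covariate -0.35, DESeq2 size factors -0.01, thyrocyte scaling -0.28, DESeq2 Wald test -0.01, leaving out a mouse -0.08 to 0.25), Nkx2-1 (leaving out a mouse -0.32 to 0.22), Ube2c (covariate 1.94, leaving out a mouse -1.17 to 0.01), Lyve1 (thyrocyte scaling -0.19, leaving out a mouse -0.05 to 0.78), Srebf1 (leaving out a mouse -0.23 to 0.29), Hmgcs1 (covariate 0.08) and Slc2a1 (covariate -0.03). With the covariate 97 genes kept direction and call, with the DESeq2 Wald test 120. Many of the 123 were named because they were called, 12 in each direction because both fits called them, so these counts do not stand for all genes. Over all tested genes, 772 of 1211 higher calls and 329 of 1097 lower calls were kept with the covariate. Genes under about 1 CPM rest on few reads, and changes in them are less precise. The causes were not tested.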
